A study of Lepidium sativum with 30 samples.

Results

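The 10 libraries described here follow garden cress (Lepidium sativum) seed under the phytotoxin Myrigalone A (MyA) as imbibition went on: 5 libraries of seed imbibed with 0.5 mM MyA for 12 h are set against 5 libraries of seed imbibed with the same solution for 6 h. They were chosen by treatment label from 30 libraries of the series, and no measured value entered the choice. All groups come from whole seeds of a single genotype, labelled FR14 (Keimsprossen, Juliwa), and poly(A) RNA was sequenced from each. A course without MyA, sampled at the same 12 h and 6 h with 5 libraries each, serves as the comparison, and dry seed is used for 1 value. By the study's methods MyA was dissolved in DMSO, and controls were given the solvent alone (0.1% DMSO). MyA is a dihydrochalcone from the leaves and fruits of bog myrtle (Myrica gale), and at the dose used it slows germination. At 12 h the endosperm of MyA-treated seed had by the sampling scheme not begun to rupture, whereas that of control seed had, so the 12 h groups share a time but not a stage. Since whole seeds were taken, the embryo and endosperm are not separated, and fewer cells of a type and less RNA per cell cannot be told apart.

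As background, imbibition restarts respiration, repair and translation in the seed, and germination is completed when the radicle grows through the weakened endosperm and the testa. Transcripts of the maturation programme, kept under abscisic acid (ABA) and its transcription factors ABI3 and ABI5, decline, and those of wall-loosening proteins, aquaporins and nutrient transporters accumulate as the embryo prepares to elongate. Plants meet foreign or reactive small molecules with a chain of enzymes that oxidise or reduce them, couple them to glutathione or glucose, and export the products to the vacuole or the apoplast.

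Libraries held between 22735661 and 32694757 counts at 12 h and between 27484980 and 33609057 at 6 h, over 48306 contigs of the study's assembly. The test covered the 22155 contigs that reached 5 CPM (counts scaled by library size) in 4 or more of 29 libraries, and less abundant contigs entered a wider fit of the 42831 with 5 or more counts in 4 libraries. Contigs are termed above or below 5 CPM by this filter. Libraries of other groups can meet it, so a contig termed above 5 CPM may lie lower in the 10 libraries described. A contig was called higher or lower where edgeR's adjusted p was under 0.05 with over 2-fold change (log2 1). Levels are given as CPM scaled by TMM factors, as mean ± SD between libraries (n = 5 in each group), and fold changes with the standard error (SE) of the fit, with 12 h over 6 h throughout. Outside the contigs treated in the next paragraphs, the libraries correlated at a median of 0.965 within 12 h, 0.979 within 6 h and 0.849 between the times (Pearson's r of log2 CPM across contigs). The RT-qPCR reference contigs were not level over the interval: PP2AA2 had a log2 fold change of 0.49 and CAC of 0.48, with no overlap between the groups (as in 23.0% of tested contigs upwards and 26.3% downwards), while HOBBIT stood at -0.33. Scaling to these 3 contigs lowers the median of all contigs to -0.16, against 0.05 under TMM, and changes below are relative to the TMM scale.

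From 6 h to 12 h under MyA 4242 contigs rose and 3252 fell, which is 19.1% and 14.7% of those tested. Much of the rise lies in a group of contigs that move as a block. M18-5, a MyA library of 18 h that the authors did not use and that entered none of these fits, holds 1948 of the tested contigs at 4-fold or more above the other 4 libraries of its group. Of these 1948, 1884 were called higher at 12 h and 5 lower (96.7% and 0.257%), and their log2 fold changes had a median of 1.80 and quartiles of 1.72 and 1.87. They held 4.26%, 5.84%, 7.08%, 5.70% and 1.64% of the counts in the 12 h libraries, against 2.14%, 1.77%, 1.33%, 1.30% and 1.1% in the 6 h libraries. The shares at 12 h exceeded every 6 h library in 4 of 5 cases (difference in means 3.38 percentage points, exact permutation p = 0.0238, two-sided). In control seed the same contigs held 1.46 ± 0.491% at 12 h and 1.30 ± 0.613% at 6 h, and in dry seed 4.14 ± 1.03%. The study matched 21 tested contigs to Brassica sequences alone, all of which belong to this set, and 19 of them were called higher. In the paper's own comparisons, contigs without an Arabidopsis or Brassica match are described as possible contamination from other species. The source of the set was not tested.

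**Figure D1:**
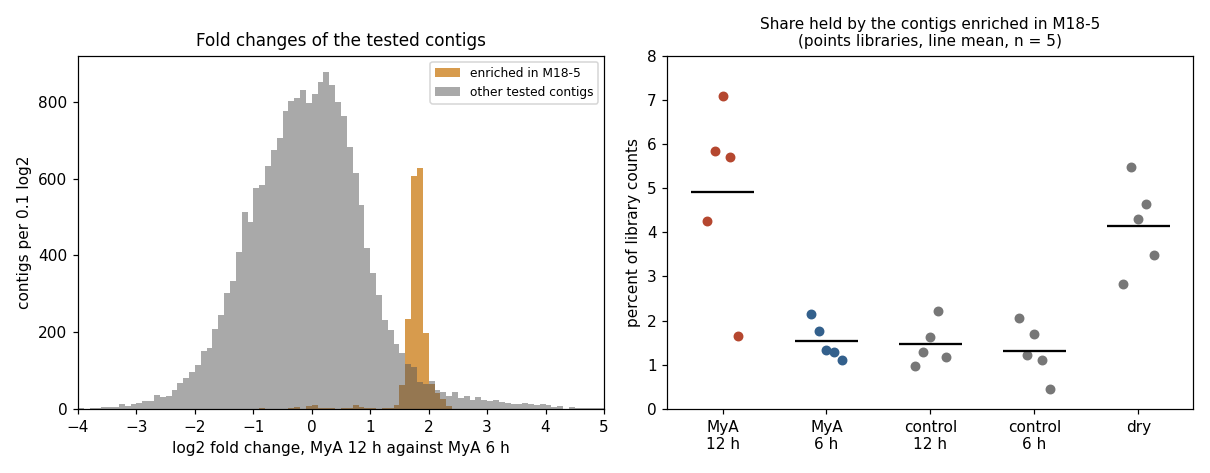
Left, log2 fold change of MyA 12 h over MyA 6 h (x axis) against the number of contigs per 0.1 log2 (y axis), for the 1948 contigs enriched in M18-5 and for the other tested contigs. Right, percent of each library's counts held by those 1948 contigs. The set forms a narrow peak with quartiles of 1.72 and 1.87, and 4 of the 5 MyA 12 h libraries lie above the MyA 6 h and both control groups.

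Outside this set 20207 contigs were tested, of which 2358 rose (11.7%) and 3247 fell (16.1%), with a median log2 fold change of -0.07. The split depends on the scaling. When the reference contigs set the scale, 3540 contigs rose and 4425 fell, and outside the set 1659 and 4418. With the set taken out before scaling, 2565 rose and 2992 fell. Every named contig below lies outside the set unless the text says otherwise.

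The 525 contigs that carry a gene name or a match in the study's own tables and graphs were grouped by role. The study selected many of them on its MyA and control libraries, so their counts describe that selection. Of the 525, 259 are on its list of contigs higher at MyA 18 h than in control at 12 h. Of the 120 of these that were tested, 72 rose and 5 fell. On its list of contigs higher under MyA than in control at 12 h, 11 of 79 tested outside the set rose and 27 fell. Of all contigs outside the set, where the 120 also lie, 11.7% rose and 16.1% fell. Of 284 tested, 124 rose and 45 fell, and outside the set 101 of 254 rose (39.8%, against the 11.7% of all contigs outside the set) and 45 fell (17.7%, against 16.1%). Of 240 less abundant ones, 107 rose and 21 fell, where 25.5% and 17.6% of the contigs below 5 CPM did so. These shares of all contigs are the background for the counts of every list below, many of which hold few contigs.

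**Figure D2:**
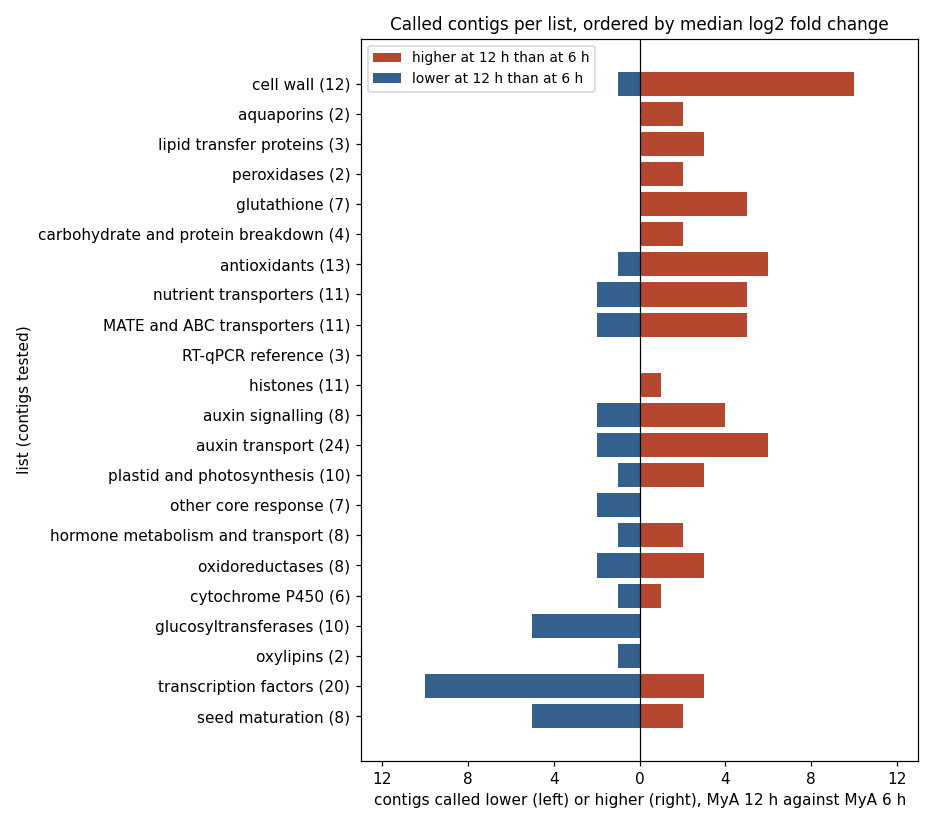
Number of contigs called lower (left) or higher (right) at MyA 12 h than at MyA 6 h in each list, with the number tested in parentheses, ordered by median log2 fold change. The cell wall list stands at the top with 10 of 12 higher, and the seed maturation list at the bottom with 5 of 8 lower.

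Of 8 tested contigs of the seed maturation list 5 fell and 2 rose under MyA, and the list median was -1.32 (log2 fold change). Of all tested contigs 14.7% fell and 19.1% rose. ABI5, the bZIP factor that holds back germination under ABA, stood at 1.41, 1.81, 1.49, 2.92 and 1.64 CPM at 12 h, against 5.25, 5.92, 8.47, 6.79 and 8.90 CPM at 6 h. All 12 h values lay below all 6 h values (log2 fold change -1.94 with SE 0.24, edgeR adjusted p = 3.7e-05). ABI3, the B3-domain regulator of maturation, averaged 7.40 ± 1.00 CPM at 12 h, against 17.8 ± 3.74 CPM at 6 h (log2 fold change -1.26 with SE 0.16, edgeR adjusted p = 4.7e-05). The dehydrin RAB18, an ABA-responsive protein of desiccation tolerance, had 6.78, 16.8, 20.4, 11.3 and 28.7 CPM at 12 h, against 44.2, 76.6, 42.4, 41.3 and 96.0 CPM at 6 h. The libraries of both times varied several-fold among themselves, yet did not overlap (log2 fold change -1.84 with SE 0.38, edgeR adjusted p = 0.00116). LDAP3, a protein of lipid droplets, fell to 2.60 ± 1.08 CPM at 12 h, against 10.7 ± 3.56 CPM at 6 h (log2 fold change -2.03 with SE 0.31, edgeR adjusted p = 0.000147). TIP3;1, the water channel of the protein storage vacuole, averaged 4.49 ± 2.55 CPM at 12 h, against 11.8 ± 5.24 CPM at 6 h, with overlapping groups (log2 fold change -1.39 with SE 0.43, edgeR adjusted p = 0.0128).

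Maturation-type names did not all fall. ABF3, a bZIP factor of ABA signalling, was at 5.12 ± 1.22 CPM at 12 h, against 1.44 ± 0.290 CPM at 6 h (log2 fold change 1.82 with SE 0.22, edgeR adjusted p = 3.19e-05), with every 12 h library above every 6 h library. The LEA-like contig matching AT5G60530 rose from few counts, with 273 counts over the 12 h libraries and 18 over the 6 h libraries (log2 fold change 3.96 with SE 0.46, edgeR adjusted p = 2.28e-05). LEA18, which belongs to the set enriched in M18-5, did not pass (18.6 ± 10.7 CPM at 12 h, against 19.0 ± 5.70 CPM at 6 h). In control seed the log2 fold changes over the same interval were -2.07 for ABI5, -2.90 for RAB18, -2.66 for LDAP3 and 1.87 for ABF3. None of these differed between the courses in the test of the difference (edgeR adjusted p between 0.353 and 0.99). EPR1, an extensin-like protein known from the germinating endosperm of Arabidopsis, fell too, to 28.8, 65.1, 44.3, 38.2 and 31.1 CPM at 12 h, against 111, 164, 189, 124 and 220.1 CPM at 6 h (log2 fold change -1.96 with SE 0.25, edgeR adjusted p = 4.86e-05).

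**Figure D3:**
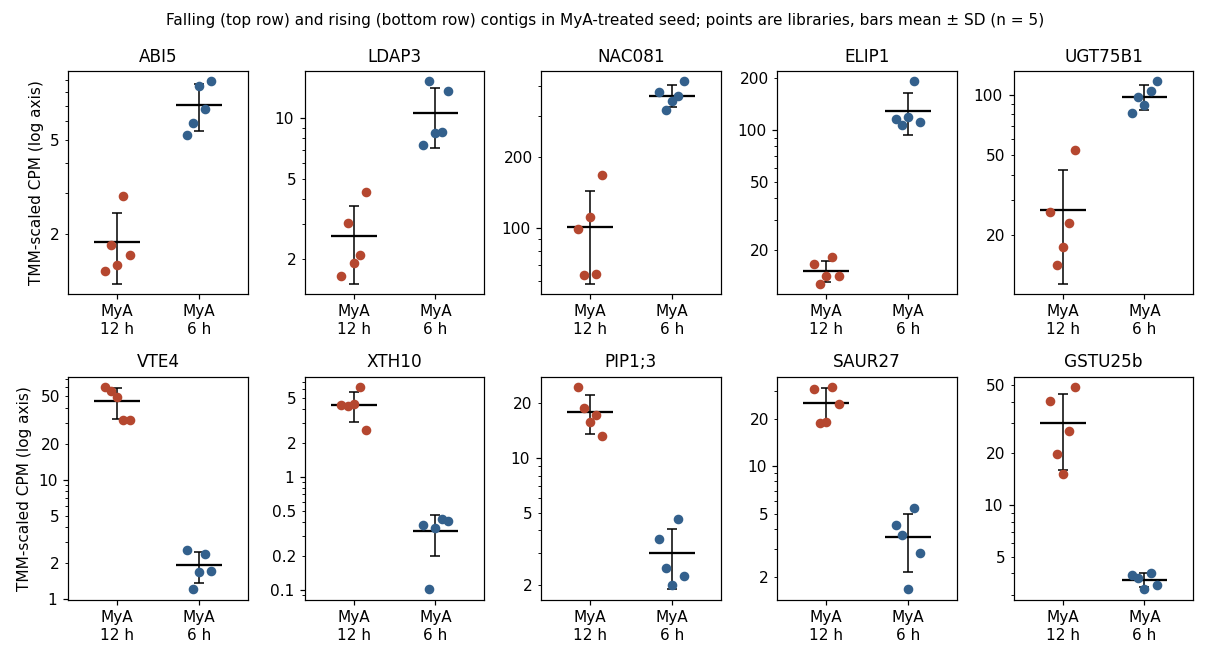
TMM-scaled CPM (log y axis) of 10 contigs in the 5 MyA 12 h and the 5 MyA 6 h libraries, with points for libraries and bars for mean ± SD. ABI5, LDAP3, NAC081, ELIP1 and UGT75B1 (top) are lower in all 12 h libraries, and VTE4, XTH10, PIP1;3, SAUR27 and GSTU25b (bottom) are higher in all of them.

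Of 20 tested contigs of stress-type transcription factors 10 fell, 3 rose and 7 were not called (median -1.08), whereas 4 of 10 less abundant ones rose and 1 fell. Of all contigs outside the set 16.1% fell and 11.7% rose, and of those below 5 CPM 25.5% rose and 17.6% fell. In control seed 16 of these 20 fell and 2 rose (median -2.69), where 16.0% and 14.1% of all contigs outside the set did so. The difference between the courses passed for 1 of the 20. NAC081, a NAC factor of wound and pathogen responses, had 98.9, 63.4, 112, 64.2 and 168 CPM at 12 h, against 377, 318, 347, 363 and 422 CPM at 6 h. The groups were well apart, and the fifth library was the highest at both times (log2 fold change -1.85 with SE 0.25, edgeR adjusted p = 6.22e-05). The zinc finger protein ZAT12, a regulator of responses to reactive oxygen and cold, had 53.6, 22.0, 76.0, 38.7 and 119.6 CPM at 12 h, against 280.2, 177, 240.5, 166 and 318 CPM at 6 h (log2 fold change -1.93 with SE 0.39, edgeR adjusted p = 0.00104). Its relative ZAT10 showed the largest drop on the list with overlapping groups, at 7.54 ± 6.08 CPM at 12 h, against 35.1 ± 23.5 CPM at 6 h (log2 fold change -2.21 with SE 0.63, edgeR adjusted p = 0.00811). ERF2, an ethylene response factor, averaged 6.84 ± 4.01 CPM at 12 h, against 28.8 ± 6.77 CPM at 6 h (log2 fold change -2.07 with SE 0.40, edgeR adjusted p = 0.000851). NAC102b and both NAC032 contigs fell as well, with log2 fold changes of -1.5 for NAC102b, -1.47 for NAC032b and -1.55 for NAC032a. SIB2, a VQ-motif protein, was at -1.21 (edgeR adjusted p = 0.000161).

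The 3 that rose were bHLH129, bHLH62 and ORA47. The contig BHLH129 averaged 16.6 ± 2.40 CPM at 12 h, against 2.33 ± 0.733 CPM at 6 h, with no overlap (log2 fold change 2.84 with SE 0.22, edgeR adjusted p = 2.18e-06), and BHLH62 4.29 ± 1.17 CPM at 12 h, against 1.52 ± 0.121 CPM at 6 h (log2 fold change 1.49 with SE 0.21, edgeR adjusted p = 0.000101). ORA47, an AP2/ERF factor of the jasmonate response in Arabidopsis, had 3.15, 2.51, 12.0, 3.46 and 8.52 CPM at 12 h, against 2.98, 1.61, 1.75, 2.60 and 2.76 CPM at 6 h. Only the third and the fifth 12 h libraries stood clearly above the 6 h libraries (log2 fold change 1.34 with SE 0.43, edgeR adjusted p = 0.0154), and without the third 12 h library the log2 fold change was 0.88 and no longer passed. In control seed ORA47 fell (-2.38), but the difference between the courses did not pass (edgeR adjusted p = 0.123). ERF020 did not pass under MyA (17.0 ± 11.7 CPM at 12 h, against 22.2 ± 7.13 CPM at 6 h) and neither did WRKY6 (log2 fold change -0.76).

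Cell wall genes rose together, with 10 of 12 tested contigs higher, 1 lower (EPR1) and a list median of 3.79 (log2 fold change), and 7 of 13 less abundant ones higher. The shares of all contigs that rose were 11.7% outside the set and 25.5% below 5 CPM. None of those 13 was lower by edgeR or by DESeq2, or at an unadjusted p under 0.05 (0 contigs). The extensin-like ELP had 31.4, 23.4, 21.3, 8.90 and 4.87 CPM at 12 h, against 0.707, 0.0335, 0, 0.0975 and 0.0940 CPM at 6 h. It was near the detection limit at 6 h, with 26 counts over 5 libraries, against 2580 at 12 h (log2 fold change 6.64 with SE 0.83, edgeR adjusted p = 3.75e-05). The xyloglucan endotransglucosylase XTH9, of a family that cuts and rejoins the xyloglucan tethers between cellulose microfibrils, was at 357 counts over the 12 h libraries and 6 over the 6 h libraries (log2 fold change 5.84 with SE 0.66, edgeR adjusted p = 1.89e-05). XTH10 of the same family had 4.35, 4.29, 4.43, 6.33 and 2.59 CPM at 12 h, against 0.372, 0.1004, 0.350, 0.423 and 0.407 CPM at 6 h, a rise seen in every library (log2 fold change 3.71 with SE 0.36, edgeR adjusted p = 6.42e-06). The pectin acetylesterase PAE1 averaged 4.34 ± 1.52 CPM at 12 h, against 0.297 ± 0.185 CPM at 6 h (log2 fold change 3.85 with SE 0.42, edgeR adjusted p = 1.61e-05) and the pectate lyase matching AT5G48900 3.48 ± 1.81 CPM at 12 h, against 0.247 ± 0.150 CPM at 6 h (log2 fold change 3.78 with SE 0.47, edgeR adjusted p = 3.47e-05). Both enzymes act on the pectin of the middle lamella and primary wall.

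EXT3, a structural extensin, was detected with 185 counts at 12 h and 6 at 6 h, and its 12 h libraries ranged from 0.195 to 2.19 CPM (log2 fold change 4.85 with SE 0.93, edgeR adjusted p = 0.000752). BDG1a, whose Arabidopsis counterpart is needed for an intact cuticle, averaged 3.24 ± 1.19 CPM at 12 h, against 0.200 ± 0.0840 CPM at 6 h (log2 fold change 4.00 with SE 0.40, edgeR adjusted p = 8.12e-06). The cell wall invertase CWINV1, which splits apoplastic sucrose, had 2.52, 0.998, 11.1, 0.973 and 4.20 CPM at 12 h, against 0.186, 0.402, 0.127, 0.163 and 0.533 CPM at 6 h. The third 12 h library was far above the rest, but the groups did not overlap (log2 fold change 3.79 with SE 0.75, edgeR adjusted p = 0.000907). BFRUCT3, a vacuolar invertase, also rose with wide scatter, at 3.18 ± 3.71 CPM at 12 h, against 0.441 ± 0.502 CPM at 6 h (log2 fold change 2.85 with SE 0.86, edgeR adjusted p = 0.011), and without the first 12 h library its log2 fold change was 1.81. In control seed ELP rose by 8.14, XTH9 by 7.34, XTH10 by 4.03 and PAE1 by 4.35 (log2 fold changes). No tested contig of the cell wall list passed the test of the difference between the courses, by edgeR or DESeq2, and 0 had an unadjusted p under 0.05.

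Of the plasma membrane aquaporins, PIP2;8 and PIP1;3 were called higher, and of the 2 less abundant ones 1 rose and 1 fell. Of all contigs outside the set 11.7% rose, and of those below 5 CPM 25.5% rose and 17.6% fell. PIP1;3 had 24.6, 18.8, 15.7, 17.1 and 13.2 CPM at 12 h, against 3.61, 2.48, 2.01, 4.62 and 2.26 CPM at 6 h, a clear step in all libraries (log2 fold change 2.58 with SE 0.26, edgeR adjusted p = 8.36e-06), and PIP2;8 averaged 11.3 ± 3.59 CPM at 12 h, against 0.935 ± 0.531 CPM at 6 h (log2 fold change 3.61 with SE 0.36, edgeR adjusted p = 8.12e-06). Lipid transfer proteins carry lipids to the cuticle and other surfaces, and 3 of 3 tested rose (11.7% of all contigs outside the set did so). LTP5 had 19.2, 7.17, 18.43, 9.05 and 16.6 CPM at 12 h, against 5.88, 3.75, 5.76, 4.97 and 4.36 CPM at 6 h (log2 fold change 1.51 with SE 0.28, edgeR adjusted p = 0.000599), and the contig matching AT4G22460 averaged 10.6 ± 3.32 CPM at 12 h, against 1.26 ± 0.454 CPM at 6 h (log2 fold change 3.07 with SE 0.30, edgeR adjusted p = 7.7e-06). That of AT4G12530 came from 4 counts in all 6 h libraries, against 312 at 12 h (log2 fold change 6.13 with SE 0.65, edgeR adjusted p = 1.26e-05).

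Of 8 tested auxin signalling contigs 4 rose and 2 fell (11.7% and 16.1% of all contigs outside the set did so). Aux/IAA repressors hold auxin response factors inactive until auxin triggers their breakdown. Of these, IAA17 had 11.4, 8.47, 11.2, 8.66 and 7.61 CPM at 12 h, against 1.82, 1.00, 0.700, 1.07 and 0.564 CPM at 6 h (log2 fold change 3.20 with SE 0.30, edgeR adjusted p = 5.18e-06), and SHY2 (IAA3) averaged 1.497 ± 0.202 CPM at 12 h, against 0.415 ± 0.0775 CPM at 6 h (log2 fold change 1.83 with SE 0.24, edgeR adjusted p = 5.83e-05). SAUR27, of a family that activates the plasma membrane proton pump during elongation, had 30.6, 18.8, 18.9, 31.8 and 24.6 CPM at 12 h, against 4.24, 3.68, 1.66, 5.40 and 2.82 CPM at 6 h, without overlap (log2 fold change 2.81 with SE 0.29, edgeR adjusted p = 1.14e-05). The auxin response factor ARF1 fell to 9.31 ± 2.98 CPM at 12 h, against 29.8 ± 5.51 CPM at 6 h (log2 fold change -1.67 with SE 0.23, edgeR adjusted p = 6.92e-05). YDK1, a GH3 enzyme that couples auxin to amino acids, was lower in all 12 h libraries than in any 6 h library but did not reach the 2-fold threshold (log2 fold change -0.79 with SE 0.23, edgeR adjusted p = 0.00889).

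Auxin transporters showed mostly moderate changes. Of 24 tested contigs 6 rose and 2 fell (11.7% and 16.1% of all contigs outside the set did so). The PIN efflux carriers that passed above 5 CPM rose by little over 2-fold. PIN2 was measured by a pair of contigs, of which TC_70302 had 58.4, 63.0, 45.7, 53.5 and 40.2 CPM at 12 h, against 23.0, 19.5, 22.1, 28.1 and 19.3 CPM at 6 h (log2 fold change 1.22 with SE 0.15, edgeR adjusted p = 3.08e-05) and the other a log2 fold change of 1.13. Reads of near-identical contigs may have been divided between them, so values of single contigs are uncertain. PIN1b averaged 20.3 ± 5.03 CPM at 12 h, against 8.64 ± 0.607 CPM at 6 h (log2 fold change 1.23 with SE 0.16, edgeR adjusted p = 5.54e-05) and PIN3a 10.4 ± 2.89 CPM at 12 h, against 4.54 ± 0.208 CPM at 6 h (log2 fold change 1.20 with SE 0.19, edgeR adjusted p = 0.000216). When the reference contigs set the scale, PIN3a and the other PIN2 contig stay under the 2-fold threshold (0.98 and 0.91), and the other PIN2 contig also does so without the first 6 h library (0.99).

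AUX1, the influx carrier, was at 132, 126, 93.1, 124 and 90.3 CPM at 12 h, against 54.6, 56.5, 57.5, 67.5 and 53.9 CPM at 6 h. It was higher in every 12 h library, at just under 2-fold (log2 fold change 0.96 with SE 0.13, edgeR adjusted p = 5.84e-05). PIN1a was at a log2 fold change of 0.60 and did not pass. PIN7, below 5 CPM, rose in the wider fit, to 1.31 ± 0.506 CPM at 12 h, against 0.372 ± 0.209 CPM at 6 h (log2 fold change 1.68 with SE 0.39, edgeR adjusted p = 0.00281). WAT1, which exports auxin from the vacuole, averaged 1.69 ± 0.920 CPM at 12 h, against 0.372 ± 0.0833 CPM at 6 h (log2 fold change 2.18 with SE 0.42, edgeR adjusted p = 0.000757), and the ABC transporter ABCG1 5.23 ± 1.89 CPM at 12 h, against 1.87 ± 0.670 CPM at 6 h (log2 fold change 1.48 with SE 0.33, edgeR adjusted p = 0.00189). The members that fell were of the ABCB family. ABCB15 had 369, 397, 349, 309.5 and 384 CPM at 12 h, against 816, 809, 959, 817 and 963 CPM at 6 h, the tightest contrast among the auxin transporters named here (log2 fold change -1.27 with SE 0.10, edgeR adjusted p = 2.51e-06). The ABCB19 contig TC_69405 had 108, 86.5, 155, 96.0 and 177 CPM at 12 h, against 306, 234, 316, 208 and 349 CPM at 6 h (log2 fold change -1.18 with SE 0.22, edgeR adjusted p = 0.000603). The difference between the courses passed for no tested auxin transport contig by edgeR, with 7 at an unadjusted p under 0.05 and 3 called by DESeq2.

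Among hormone genes, GA2OX6, which inactivates gibberellins, fell to 5.49, 4.10, 11.01, 8.13 and 13.4 CPM at 12 h, against 19.7, 21.9, 23.7, 31.6 and 26.7 CPM at 6 h, with the groups apart (log2 fold change -1.55 with SE 0.29, edgeR adjusted p = 0.00065). The gibberellin-forming oxidases did not pass, with GA20OX2 at 7.64 ± 1.84 CPM at 12 h, against 7.72 ± 3.02 CPM at 6 h and GA20OX3 at 6.51 ± 0.940 CPM at 12 h, against 8.71 ± 1.59 CPM at 6 h (log2 fold change -0.42 with SE 0.16, edgeR adjusted p = 0.035). The nitrate transporters of the NPF family, of which NPF6.3 also carries auxin in Arabidopsis, rose. NPF6.2 averaged 5.15 ± 2.03 CPM at 12 h, against 0.659 ± 0.351 CPM at 6 h (log2 fold change 2.96 with SE 0.37, edgeR adjusted p = 3.84e-05) and NPF6.3 3.47 ± 0.673 CPM at 12 h, against 0.583 ± 0.293 CPM at 6 h (log2 fold change 2.57 with SE 0.35, edgeR adjusted p = 7.22e-05). ABCG25, an ABA exporter, stood at -0.31 and did not pass.

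The OPR1/2 reductases act on 12-oxo-phytodienoic acid and other reactive carbonyls. OPR1/2b had 32.5, 15.2, 22.7, 7.35 and 30.6 CPM at 12 h, against 26.1, 60.1, 48.6, 52.1 and 33.3 CPM at 6 h. The groups overlapped and the call was marginal (log2 fold change -1.02 with SE 0.36, edgeR adjusted p = 0.0249). With the replicate number as a block, a pairing that the data bear out for some numbers only, its edgeR adjusted p was 0.0545. Without the second, the third or the fourth 6 h library, or the second or the fourth 12 h library, it was not called either (log2 fold changes from -0.98 to -0.85). The call was also lost with library size alone as the scale (-0.9991) and with the set enriched in M18-5 taken out (-0.97). It was lost as well under edgeR's glmTreat test at 1.5-fold (adjusted p = 0.113). OPR1/2a was at 2.96 ± 1.46 CPM at 12 h, against 5.35 ± 0.497 CPM at 6 h and did not pass, but did so without the fifth 12 h library (log2 fold change -1.24). In control seed the log2 fold changes were -3.72 for OPR1/2b and -2.65 for OPR1/2a, and the difference between the courses passed for OPR1/2b but not for OPR1/2a (edgeR adjusted p = 0.132).

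Glutathione transferases, which couple reactive compounds to glutathione, had 5 of 7 tested contigs higher (11.7% of all contigs outside the set) and a median of 1.64. None of these 7 was lower by edgeR or DESeq2, or at an unadjusted p under 0.05 (0 contigs), whereas of 6 less abundant ones 2 fell and the other 4 were not called. Of all contigs below 5 CPM 17.6% fell. GSTU25b had 40.4, 19.9, 15.1, 27.0 and 48.9 CPM at 12 h, against 3.91, 3.75, 3.22, 4.00 and 3.42 CPM at 6 h. Every 12 h library was several-fold above the 6 h libraries, which lay close together (log2 fold change 3.05 with SE 0.30, edgeR adjusted p = 7.89e-06). GSTU22 averaged 5.54 ± 1.05 CPM at 12 h, against 0.683 ± 0.196 CPM at 6 h (log2 fold change 3.02 with SE 0.24, edgeR adjusted p = 2.31e-06) and GSTU1 6.31 ± 1.81 CPM at 12 h, against 2.03 ± 0.463 CPM at 6 h (log2 fold change 1.64 with SE 0.24, edgeR adjusted p = 0.000115). GSTU8 had 17.0, 5.43, 6.58, 8.56 and 23.8 CPM at 12 h, against 4.24, 2.54, 2.42, 3.51 and 4.51 CPM at 6 h, with the fifth and the first 12 h libraries highest (log2 fold change 1.84 with SE 0.41, edgeR adjusted p = 0.00175). The same 2 libraries carried GSTU25a, at 6.81, 1.22, 1.83, 1.12 and 10.96 CPM at 12 h, against 1.68, 1.54, 1.66, 1.27 and 1.505 CPM at 6 h. Its call was lost without either of these libraries, or without any 6 h library (log2 fold change 0.82 without the fifth 12 h library, against 1.53 with SE 0.60, edgeR adjusted p = 0.0372, with all). Reference contig scaling (edgeR adjusted p = 0.0696) and the replicate number as a block (edgeR adjusted p = 0.14) lost it too. So did edgeR's glmTreat test at 1.5-fold (adjusted p = 0.0996). The contig TC_22725 of GSTU19, which couples 12-oxo-phytodienoic acid to glutathione, did not pass (13.6 ± 4.17 CPM at 12 h, against 21.5 ± 10.6 CPM at 6 h). The paper combined several contigs of this gene, so a single contig may not stand for it.

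Glucosyltransferases went the other way, with 5 of 10 lower and none higher by edgeR or DESeq2 (2 at an unadjusted p under 0.05), and a median of -0.90. Of all contigs outside the set 16.1% were lower and 11.7% higher. In control seed 8 of the 10 were lower and 0 higher (median -2.66), where 16.0% and 14.1% of all contigs outside the set were. The difference between the courses passed for 3 of the 10. UGT75B1 had 26.3, 14.2, 17.6, 23.1 and 52.9 CPM at 12 h, against 81.3, 97.3, 89.0, 104 and 117 CPM at 6 h, a fall in all libraries (log2 fold change -1.86 with SE 0.31, edgeR adjusted p = 0.000276). UGT74E2, which glucosylates indole-3-butyric acid, was measured by 3 contigs that all fell, with log2 fold changes of -2.29, -1.93 and -1.60. For TC_16654 the values were 0.990, 0.813, 7.30, 0.876 and 4.81 CPM at 12 h, against 11.6, 17.6, 10.2, 14.1 and 19.2 CPM at 6 h. UGT74E1 fell to 17.9 ± 7.02 CPM at 12 h, against 37.8 ± 7.81 CPM at 6 h (log2 fold change -1.07 with SE 0.24, edgeR adjusted p = 0.00213), and was just under the 2-fold threshold without the second 12 h library (-0.93) or the first 6 h library (-0.97). None of the UGT73B5 contigs passed: UGT73B5a had 35.1, 23.2, 28.1, 33.6 and 40.8 CPM at 12 h, against 33.6, 42.4, 31.2, 37.2 and 32.9 CPM at 6 h, UGT73B5b averaged 26.1 ± 19.9 CPM at 12 h, against 24.5 ± 5.54 CPM at 6 h and UGT73B5c 8.78 ± 3.54 CPM at 12 h, against 14.6 ± 1.73 CPM at 6 h. UGT75D1 (0.94) and UGT73B2 (0.77) were higher in all 12 h libraries at under 2-fold.

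Oxidoreductases were mixed, with 3 of 8 higher and 2 lower (11.7% and 16.1% of all contigs outside the set). The FAD/NAD(P)-binding contig matching AT3G44190 had 12.8, 3.03, 1.80, 3.46 and 11.4 CPM at 12 h, against 0.447, 0.201, 0.223, 0.130 and 0.470 CPM at 6 h. It was low in all 6 h libraries, and at 12 h highest in the first and the fifth (log2 fold change 4.46 with SE 0.64, edgeR adjusted p = 0.000102). FAD-OXR, a berberine bridge enzyme-like oxidase, had 15.3, 5.36, 9.25, 5.84 and 14.1 CPM at 12 h, against 1.49, 1.104, 1.05, 1.33 and 2.01 CPM at 6 h (log2 fold change 2.84 with SE 0.34, edgeR adjusted p = 2.81e-05). The short-chain dehydrogenase SDR3B averaged 3.44 ± 1.19 CPM at 12 h, against 0.526 ± 0.215 CPM at 6 h (log2 fold change 2.70 with SE 0.36, edgeR adjusted p = 5.44e-05). AT5G64250, a nitronate monooxygenase-like protein, fell to 3.91 ± 1.15 CPM at 12 h, against 9.82 ± 1.93 CPM at 6 h (log2 fold change -1.32 with SE 0.23, edgeR adjusted p = 0.000337), and AT5G22140 was at 6.99 ± 3.06 CPM at 12 h, against 7.32 ± 0.618 CPM at 6 h and did not pass. Of 6 tested cytochrome P450 contigs, which add oxygen to small molecules, 1 rose and 1 fell (11.7% and 16.1% of all contigs outside the set did so). CYP71B26 rose to 14.4 ± 5.65 CPM at 12 h, against 1.38 ± 0.324 CPM at 6 h (log2 fold change 3.38 with SE 0.30, edgeR adjusted p = 4.33e-06) and CYP81D4 fell to 6.198 ± 1.499 CPM at 12 h, against 15.2 ± 2.42 CPM at 6 h (log2 fold change -1.30 with SE 0.18, edgeR adjusted p = 8.45e-05). CYP81D8 had 24.98, 5.47, 37.7, 6.52 and 69.9 CPM at 12 h, against 41.2, 55.6, 60.6, 54.5 and 70.6 CPM at 6 h. Its 12 h libraries spread from 5.47 to 69.9 CPM, and it did not pass (log2 fold change -0.96 with SE 0.57, edgeR adjusted p = 0.152), though it did without the fifth 12 h library (-1.65). CYP78A7, of a family that promotes organ growth, was lower in all 12 h libraries at just under 2-fold (-0.95).

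Of 13 tested antioxidant contigs 6 rose and 1 fell, with 1 of the risers in the set enriched in M18-5. Of all tested contigs 19.1% rose and 14.7% fell. VTE4, the methyltransferase that makes alpha-tocopherol (vitamin E), had 60.4, 56.0, 49.2, 31.5 and 31.7 CPM at 12 h, against 2.57, 1.21, 1.69, 2.40 and 1.72 CPM at 6 h. Every 12 h library was far above the 6 h libraries (log2 fold change 4.58 with SE 0.27, edgeR adjusted p = 6.08e-07). Ascorbate oxidase (AO), an apoplastic enzyme, averaged 17.9 ± 4.40 CPM at 12 h, against 3.98 ± 1.04 CPM at 6 h (log2 fold change 2.17 with SE 0.22, edgeR adjusted p = 8.99e-06), the ascorbate peroxidase APX5 1.72 ± 0.254 CPM at 12 h, against 0.600 ± 0.122 CPM at 6 h (log2 fold change 1.51 with SE 0.23, edgeR adjusted p = 0.000171), and an iron superoxide dismutase contig (FSD1b, TC_57989) 1.15 ± 0.175 CPM at 12 h, against 0.0655 ± 0.0914 CPM at 6 h (log2 fold change 4.03 with SE 0.63, edgeR adjusted p = 0.000184). Dehydroascorbate reductase DHAR2 did not pass (5.02 ± 2.86 CPM at 12 h, against 3.21 ± 0.482 CPM at 6 h), nor did the alternative oxidase AOX1A (15.5 ± 11.5 CPM at 12 h, against 20.8 ± 2.57 CPM at 6 h). Both tested class III peroxidases, enzymes of wall cross-linking, rose (11.7% of all contigs outside the set did so). PER13 had 16.9, 14.01, 25.3, 12.9 and 27.0 CPM at 12 h, against 5.66, 6.06, 5.13, 5.40 and 5.11 CPM at 6 h (log2 fold change 1.81 with SE 0.21, edgeR adjusted p = 2.53e-05), and PER45b was at 127 counts at 12 h and 14 at 6 h (log2 fold change 3.25 with SE 0.67, edgeR adjusted p = 0.00122).

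Of 11 tested MATE and ABC transporters 5 rose and 2 fell (11.7% and 16.1% of all contigs outside the set did so), and of 5 less abundant ones 2 rose and 1 fell. Of all contigs below 5 CPM 25.5% rose and 17.6% fell. The MATE exporters, which move organic compounds out of the cytosol, went both ways. DTX16 had 6.66, 5.54, 4.59, 5.01 and 5.39 CPM at 12 h, against 0.782, 0.904, 0.955, 1.07 and 0.439 CPM at 6 h (log2 fold change 2.71 with SE 0.24, edgeR adjusted p = 4.08e-06) and DTX9a averaged 4.27 ± 2.31 CPM at 12 h, against 0.414 ± 0.131 CPM at 6 h (log2 fold change 3.35 with SE 0.39, edgeR adjusted p = 2.27e-05). DTX4 fell to 22.4 ± 3.96 CPM at 12 h, against 56.7 ± 6.505 CPM at 6 h (log2 fold change -1.34 with SE 0.14, edgeR adjusted p = 1.02e-05) and DTX51 to 18.6 ± 4.60 CPM at 12 h, against 50.8 ± 4.94 CPM at 6 h (log2 fold change -1.44 with SE 0.16, edgeR adjusted p = 1.8e-05). ABCG34 had 63.0, 60.6, 43.3, 33.8 and 77.3 CPM at 12 h, against 19.0, 19.98, 28.2, 25.6 and 34.8 CPM at 6 h, with overlap (log2 fold change 1.13 with SE 0.23, edgeR adjusted p = 0.00122), and lay under 2-fold without the fifth 12 h library (0.93) or with reference contig scaling (0.91). DTX35 did not reach 2-fold (0.66).

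Nutrient transporters mostly rose where called, with 5 of 11 higher, 2 lower, and 7 of 9 less abundant ones higher. Of all contigs outside the set 11.7% were higher and 16.1% lower, and of those below 5 CPM 25.5% were higher. The iron and copper transporter OPT3 had 7.98, 4.70, 2.79, 4.67 and 7.30 CPM at 12 h, against 0.856, 1.104, 1.21, 0.488 and 1.35 CPM at 6 h (log2 fold change 2.45 with SE 0.34, edgeR adjusted p = 8.24e-05). BOR2, a borate exporter, had 36.2, 37.1, 41.5, 21.9 and 36.2 CPM at 12 h, against 8.23, 8.73, 8.15, 7.74 and 8.31 CPM at 6 h, with 6 h libraries that hardly varied (log2 fold change 2.07 with SE 0.16, edgeR adjusted p = 1.64e-06). The ammonium transporter AMT1-1 averaged 9.28 ± 3.16 CPM at 12 h, against 2.99 ± 0.602 CPM at 6 h (log2 fold change 1.64 with SE 0.24, edgeR adjusted p = 0.000131) and the amino acid transporter UMAMIT25 6.52 ± 1.43 CPM at 12 h, against 2.09 ± 0.583 CPM at 6 h (log2 fold change 1.64 with SE 0.24, edgeR adjusted p = 0.000105). NHX2, a vacuolar cation/proton antiporter, fell to 2.64 ± 0.934 CPM at 12 h, against 13.9 ± 2.88 CPM at 6 h (log2 fold change -2.39 with SE 0.26, edgeR adjusted p = 1.56e-05).

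Of 11 tested histone contigs 1 rose, where 11.7% of all contigs outside the set did so. The list's median was 0.45 against -0.07 for all contigs outside the set. That 1 contig, H2B, had 32.8, 17.4, 23.7, 35.5 and 30.1 CPM at 12 h, against 15.1, 8.20, 11.6, 16.0 and 9.59 CPM at 6 h (log2 fold change 1.21 with SE 0.23, edgeR adjusted p = 0.000767), and it was just under 2-fold with reference contig scaling (0.98). HTA6, an H2A protein, was at 14.9 ± 3.08 CPM at 12 h, against 17.8 ± 2.98 CPM at 6 h. Of 12 ribosomal protein contigs 11 lay below 5 CPM, and 2 of these rose (25.5% of all contigs below 5 CPM did so). ELIP1, an early light-induced protein that shields the photosynthetic apparatus, had 16.6, 12.8, 14.1, 18 and 14.1 CPM at 12 h, against 115, 107, 119, 192 and 111 CPM at 6 h. All 12 h libraries lay far below the 6 h libraries (log2 fold change -3.09 with SE 0.18, edgeR adjusted p = 6.08e-07). The other plastid contigs called, PSBA, PSAB and RPOC1, belong to the set enriched in M18-5, and PSBA, the D1 protein of photosystem II, had 328, 454, 566, 681 and 118 CPM at 12 h, against 154, 129.6, 93.9, 90.3 and 80.8 CPM at 6 h. At 6 h its libraries ranked as that set's share did. At 12 h the fifth library was lowest in both, but PSBA was highest in the fourth library and the share in the third (7.08%).

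Most of the largest rises among listed contigs above 5 CPM started from few counts at 6 h, though VTE4 had 287 counts over its 6 h libraries. After ELP, they were AT5G12420 (a WSD1-like acyltransferase, 6.63), AT3G52561 (6.34), the mitochondrial branched-chain aminotransferase BCAT-1 (6.33), the lipid transfer protein AT4G12530 (6.13), the O-methyltransferase-like AT1G77520 (6.05), XTH9 (5.84), AT1G61760 (5.18), the peptidase AT1G67690 (5.05), the ABA-regulated RNA-binding protein ARP1 (5.03), the dirigent protein DIR6 (5.01), EXT3, AT5G62280 (4.74), the cysteine protease AT2G34080 (4.67) and VTE4. AT3G52561 had 4 counts over the 6 h libraries and 353 over the 12 h libraries. BCAT-1 had 17.3, 7.36, 7.22, 5.84 and 19.6 CPM at 12 h, against 0.112, 0.134, 0.191, 0.163 and 0.0940 CPM at 6 h (log2 fold change 6.33 with SE 0.47, edgeR adjusted p = 1.43e-06). DIR6, of a protein family that steers the coupling of lignan precursors, had 5.55, 4.92, 6.80, 7.35 and 6.82 CPM at 12 h, against 0.112, 0.167, 0.318, 0.195 and 0.157 CPM at 6 h (log2 fold change 5.01 with SE 0.27, edgeR adjusted p = 4.87e-07). AT5G12420 had 11.1, 8.98, 7.30, 2.63 and 11.8 CPM at 12 h, against 0.186, 0.0669, 0.0955, 0.0650 and 0 CPM at 6 h (log2 fold change 6.63 with SE 0.58, edgeR adjusted p = 3.73e-06).

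Among listed contigs above 5 CPM whose groups did not overlap, the largest fall was that of AT4G01895, a NIMIN-1-related gene of the salicylic acid pathway, with 0.300, 0.554, 0.497, 0.0973 and 1.00 CPM at 12 h, against 10.9, 5.96, 6.65, 4.45 and 5.64 CPM at 6 h. It was low in all 12 h libraries (log2 fold change -3.72 with SE 0.45, edgeR adjusted p = 2.82e-05), while in control seed its log2 fold change was -0.34, and the difference between the courses did not pass (edgeR adjusted p = 0.161). After it and ELIP1 came NHX2, the UGT74E2 contig TC_16654, ERF2, LDAP3, EPR1, ABI5, another UGT74E2 contig, ZAT12, UGT75B1, NAC081, RAB18, the tolB-related TOLBb and ARF1. TOLBb averaged 16.5 ± 11.6 CPM at 12 h, against 57.7 ± 23.1 CPM at 6 h (log2 fold change -1.80 with SE 0.47, edgeR adjusted p = 0.0047). OXI1, a kinase of oxidative signalling, also fell, at 15.8 ± 15.5 CPM at 12 h, against 49.5 ± 17.4 CPM at 6 h (log2 fold change -1.64 with SE 0.54, edgeR adjusted p = 0.0166), and its log2 fold change was -2.50 without the fifth 12 h library, which stood at 42.6 CPM. Larger changes occurred in contigs with no Arabidopsis name. TC_49058 rose to 21.8, 9.54, 10.7, 8.52 and 14.4 CPM at 12 h, against 0.112, 0.0335, 0.0637, 0 and 0.125 CPM at 6 h (7.53) and TC_48750 to 39.6 ± 19.2 CPM at 12 h, against 0.439 ± 0.0563 CPM at 6 h (6.48). TC_69999 fell to 0.142 ± 0.169 CPM at 12 h, against 8.02 ± 4.03 CPM at 6 h (-5.94) and TC_60965 to 0.270, 0.185, 0.229, 0.292 and 0.152 CPM at 12 h, against 9.90, 9.27, 12.26, 10.8 and 7.40 CPM at 6 h (-5.45).

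The MyA course was then compared with the control course, in which 2845 contigs rose and 3233 fell (12.8% and 14.6% of those tested). With reference contig scaling 1990 rose and 4260 fell there, and outside the set 2843 rose (14.1%) and 3224 fell (16.0%) on the TMM scale. Of the 2358 contigs that rose under MyA outside the set, 91.3% were also called higher in control, and these are 75.7% of those called in control. Of the 3247 that fell, 84.3% were also lower in control, or 84.9% of the control calls. The courses share no libraries. The test of the difference between them called 15 of 22155 contigs (0.0677%), all with a change that was higher under MyA, and none lower. At an unadjusted p under 0.05, 2582 were higher and 201 lower, and DESeq2 called 105 higher and 3 lower. The count rests on single libraries: it is 1670 without the fifth 12 h MyA library and 1373 without the fifth 6 h control library, of which 54 and 60 lie outside the set enriched in M18-5. It is 24 without the second 12 h MyA library or the fourth 6 h control library, 9 without the first, the second or the fifth 6 h MyA library, and 8 without the first 12 h MyA library or the first 6 h control library. Without the first or the fifth 12 h control library or the third 6 h MyA library it is 4, without the third 12 h control library 5, and without the fourth 6.

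**Figure D4:**
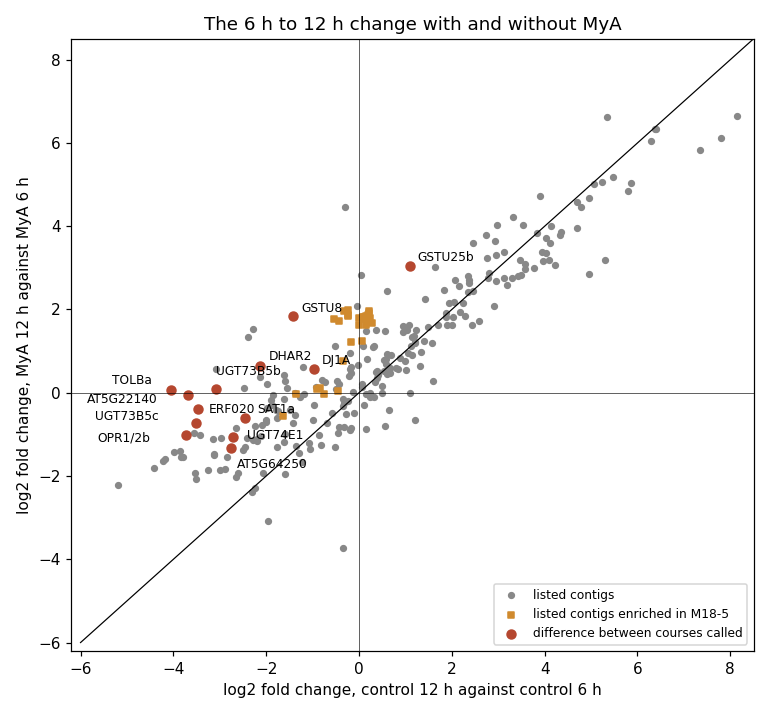
Log2 fold change from 6 h to 12 h in control seed (x axis) and in MyA-treated seed (y axis) for the 284 listed contigs tested, with the line of equal change. Most points lie along the line, and the 13 named contigs called for a difference lie above it, most of them at negative x values.

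Of these 15, 13 carry a name, and most did not pass under MyA while they fell in control. UGT73B5c had a log2 fold change of -0.73 under MyA and -3.52 in control (difference 2.90, SE 0.34, edgeR adjusted p = 0.00111). For AT5G22140 the changes were -0.06 and -3.69 (difference 3.74, SE 0.47, edgeR adjusted p = 0.00175), for UGT73B5b 0.10 and -3.07 (difference 3.27, SE 0.52, edgeR adjusted p = 0.0157), and for ERF020 -0.38 and -3.48 (difference 3.19, SE 0.53, edgeR adjusted p = 0.0232). TOLBa showed the largest difference among these 13, at 0.07 under MyA and -4.06 in control (difference 4.23, SE 0.75, edgeR adjusted p = 0.0382). UGT74E1, OPR1/2b and AT5G64250 fell in both courses and less so under MyA, with differences of 1.75, 2.81 and 1.54 (edgeR adjusted p = 0.0157, 0.0279 and 0.0394).

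The serine acetyltransferase SAT1a, which supplies the cysteine precursor, did not pass under MyA (-0.60) and fell in control (-2.46), and DHAR2 did the same (0.65 and -2.13). DJ1A, a protein of the oxidative stress response, was at 0.58 under MyA and -0.98 in control (difference 1.66, SE 0.25, edgeR adjusted p = 0.0141). GSTU25b rose in both courses and more under MyA (3.05 and 1.1, difference 2.06, SE 0.33, edgeR adjusted p = 0.0157). GSTU8 was the only 1 of the 13 that was called higher under MyA and lower in control (1.84 and -1.41, difference 3.35, SE 0.47, edgeR adjusted p = 0.0063). The levels behind these differences vary widely among the 12 h MyA libraries: TOLBa had 12.0, 4.73, 23.4, 3.60 and 24.3 CPM at 12 h, against 13.03, 9.64, 13.2, 7.31 and 22.1 CPM at 6 h, and UGT73B5b was between 9.29 and 58.6 CPM at 12 h and between 16.8 and 31.9 CPM at 6 h.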

How the data were processed

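The deposited values were read counts per assembled contig, which the authors made with BWA and HTSeq (versions not stated) from poly(A) RNA libraries. They were whole numbers and not normalized. Gene names came from the study's tables, its primer list or contig IDs printed on its graphs, and several genes have more than 1 contig. Members and lists were chosen with earlier results of these data known. Named contigs were the listed ones, the 15 largest rises and 15 largest falls among annotated contigs outside the set enriched in M18-5 with no overlap between the groups, and at most 2 contigs each way without an Arabidopsis name. TIP1;2 was left out because its contig is ambiguous.

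Counts were fitted in edgeR 4.0.16 (R 4.3.3) with TMM factors, glmQLFit and glmQLFTest, without a replicate term, and with Benjamini-Hochberg adjustment. The SE was taken as the log2 fold change over the square root of F. At 5 CPM a library held 114 to 168 counts, and 3 counts, which a count of 0 allows, came to at most 0.132 CPM. The set enriched in M18-5 used log2(CPM + 1). Tests on simulated data for 12 h against 6 h recovered 66% of 2-fold, 96% of 4-fold and 100% of 8-fold changes at an adjusted p under 0.05. When the fold threshold was also required, 44% of 2-fold changes were recovered, and 5 unchanged contigs of the 22155 simulated were called. Only 100, 50 and 50 contigs were changed by these folds, far fewer than were called in the data. No block of contigs moving together was simulated, so these rates may not hold for the comparison itself. Alternatives were DESeq2 1.42.0, RLE factors, library size alone, scaling to 3 reference contigs, no filter or 5 counts as the filter, 1 fit with all 29 libraries, glmTreat at 1.5-fold, no fold threshold, the replicate block, the set taken out, and each library left out. The labels call the libraries biological replicates but do not say whether they came from separate seed batches, so p-values cover only the spread among the libraries at hand, which may be technical. No contig sequences were used here.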

Additional observations from a re-analysis of the deposited data

Results flagged for a closer look

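In 17 of 262 groups of 5 libraries of the named contigs, the highest or lowest library stood apart from the other 4 by Dixon's criterion (critical value 0.71), where chance gives about 1 in 20. At 12 h these were ABI5 in the fourth library (2.92 CPM), BOR2 in the fourth (21.9 CPM, the lowest), TC_69999 in the fourth (0.438 CPM), BFRUCT3 and NPF6.2 in the first (9.69 and 8.73 CPM) and OXI1 in the fifth (42.6 CPM). At 6 h they were ELP, XTH9, PIP2;8 and UGT74E1 in the first library (0.707, 0.186, 1.86 and 51.7 CPM), XTH10 and GSTU19 in the second (0.1004 CPM, the lowest, and 39.8 CPM), BFRUCT3, AUX1 and ELIP1 in the fourth (1.30, 67.5 and 192 CPM), and NAC102b and AT1G67690 in the fifth (73.2 and 1.44 CPM).

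The change from 6 h to 12 h differed between the MyA and the control course for 13 named contigs, by edgeR's test of the difference. In log2 units, MyA minus control, these differences were 4.23 for TOLBa, 3.74 for AT5G22140, 3.35 for GSTU8, 3.27 for UGT73B5b, 3.19 for ERF020, 2.90 for UGT73B5c, 2.89 for DHAR2, 2.81 for OPR1/2b, 2.06 for GSTU25b, 1.97 for SAT1a, 1.75 for UGT74E1, 1.66 for DJ1A and 1.54 for AT5G64250 (edgeR adjusted p from 0.00111 to 0.0446).

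In library M18-5, which entered no fit, 23.5% of the counts lay in the 1948 contigs enriched there, above the share in each of the other libraries. These contigs were chosen as higher in M18-5 than in the rest of its group, so its rank within that group was fixed by the choice.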

How the results depend on the processing

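The counts of contigs higher and lower at 12 h than at 6 h under MyA stayed within 1.5 times of 4242 and 3252 under DESeq2, RLE factors, library size, reference contig scaling, a single fit, glmTreat and the replicate block, and ran from 4005 to 4272 and from 3158 to 3796 with each library left out. They were 9148 and 7396 under the 5-count filter, 9390 and 7443 with no filter and 8404 and 7344 with no fold threshold, and without the set enriched in M18-5 2565 rose. Outside that set the 5-count filter, no filter and no fold threshold gave 7266 and 7391, 7508 and 7438, and 6507 and 7336. For control, the 5-count filter gave 5127 higher and 6099 lower. The difference between the courses was called higher for 105 contigs by DESeq2, 3 with library size alone and 3 with glmTreat, and for 4 to 1670 with each library left out. It was called lower for 3 by DESeq2, 1 in the single fit and 0 to 3 with each library left out. The share of counts in the set differed by 3.38 points, by 2.65 (exact permutation p = 0.0794) with a set defined at log2 1, and by 2.84 to 4.20 with each library left out.

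Of 127 named contigs, 98 were called, 89 of these under every alternative, and 0 were called and reversed. Reference contig scaling lost 5 of the calls, glmTreat 4, the replicate block 2, library size alone and removal of the set 1 each, and leaving out 1 library 6. Among uncalled contigs, the log2 fold change turned sign with a library left out for LEA18 (-0.41 to 0.13), GA20OX2 (-0.21 to 0.16), UGT73B5b (-0.49 to 0.29), AT5G22140 (-0.31 to 0.064) and TOLBa (-0.31 to 0.34). It also did for GA20OX2 with the replicate block (0.056) and without the set (0.034), for UGT73B5b with reference contigs (-0.14) and the block (-0.18), and for TOLBa with reference contigs (-0.14), the 5-count filter (-0.009), the block (-0.21) and the single fit (-0.019). The cause was not tested.

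Replicate numbers did not pair the samples consistently. The deviations of same-numbered 12 h and 6 h MyA libraries correlated at -0.227, 0.381, -0.0734, 0.0741 and 0.599, and 2 of 5 libraries correlated best with their own number. In control the correlations were -0.372, -0.204, 0.241, -0.354 and 0.621, and the third and the fifth did so. The fifth number thus matched its own in both courses, and the cause was not tested. The replicate block gave 4201 higher and 3389 lower, and 12 for the difference between the courses. At these depths a contig with few counts at 6 h, such as XTH9, has a fold change of low precision.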

Other observations

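The 193 listed contigs without a role group hold 72 above 5 CPM, of which 40 rose and 7 fell from 6 h to 12 h under MyA (19.1% and 14.7% of all tested contigs did).

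The 12 h libraries under MyA differed in rank by list, given here as a description with no test. Among 20 transcription factor contigs the fifth library was the highest of the 5 for 14 and the second the lowest for 12. The fifth library was also the highest for 6 of 7 glutathione contigs and 6 of 10 glucosyltransferases, whereas it was so for 26.7% of tested contigs that lie outside the set enriched in M18-5. For 12 cell wall contigs the first library was the highest for 7 and the fourth the lowest for 8. Among the 12 h libraries under MyA, the fifth had the lowest share of counts in the set (1.64%).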
